A study of Rattus norvegicus with 18 samples.

Results

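Of the 28268 full-length transcript (FLT) isoforms of rat hippocampus, 948 (3.35%) peaked strongly in polysomes. The class was chosen by the levels in the 3 brain fractions, so these levels are no finding. An isoform belonged to it when both polysome libraries of rat brain listed it at 10 TPM or more, and when their mean was at least 4 times the mean of the ribosome-free libraries and at least 2 times the mean of the monosome libraries. TPM, the unit of level used here, is an isoform's share of the transcripts of a library after correction for length, scaled to the same total in every library. Among the 9184 isoforms that reached 10 TPM in both polysome libraries, the class made up 10.3%.

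The study reconstructed isoforms from PacBio reads of rat hippocampus and measured their levels by Illumina sequencing. All libraries came from male Sprague Dawley rats of 4 weeks of age that carried no stated allele or agent. Brain lysate, in which cycloheximide held ribosomes on the RNA, gave ribosome-free, monosome and polysome fractions on a sucrose gradient. Whole hippocampus and the somata and neuropil layers of its CA1 region, dissected from slices, were the other sources. Each of these 6 groups has 2 libraries, 12 in all, and the labels do not say whether the 2 came from separate animals, so p-values measure the spread between these libraries only. Another 6 libraries, of ribosome footprints, were not used.

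A ribosome-free RNA carries no ribosome, a monosome is an RNA with a single ribosome, and a polysome is an RNA on which several ribosomes translate at the same time. RNAs in polysomes are therefore usually taken as those under active translation, whereas a peak in monosomes is common for short open reading frames and for RNAs that are initiated slowly. In neurons, the CA1 neuropil holds mainly dendrites and axons, with glia, and the somata layer holds the pyramidal cell bodies. An RNA found in the neuropil can be translated far from the nucleus.

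The fractions chose the class, so its fraction values describe it and support nothing. The median level of its 948 isoforms was 50.7 and 48.9 TPM in the polysome libraries. In the monosome libraries it was 14.7 and 13.1 TPM, and in the ribosome-free libraries 3.78 and 4.10 TPM. The class took 12.3% and 11.8% of all TPM in the polysome libraries, against 3.69% and 3.43% in monosomes and 1.57% and 1.69% in ribosome-free RNA. Each library sums to the same total, so these are shares of a fraction and not amounts of RNA.

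**Figure D1:**
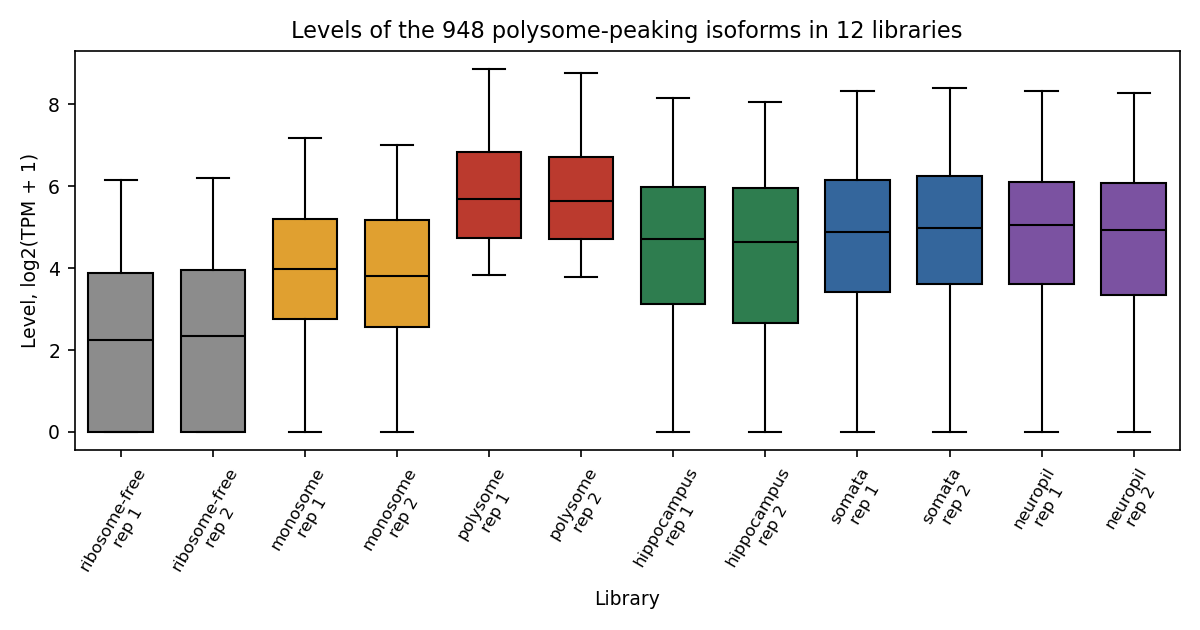
Levels of the 948 polysome-peaking isoforms in each of the 12 libraries on the log2(TPM + 1) scale, with boxes from the lower to the upper quartile, a line at the median and whiskers from the 5th to the 95th percentile. The fractions chose the isoforms, and the medians rise from ribosome-free (3.78 and 4.10 TPM) over monosome (14.7 and 13.1 TPM) to polysome (50.7 and 48.9 TPM), while the hippocampus and CA1 libraries lie between monosome and polysome.

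The monosome mean lay above the ribosome-free mean in 844 isoforms (89.0%), below it in 61, and both were listed at 0 in 43. The order of ribosome-free below monosome below polysome was met within replicate 1 and within replicate 2 in 713 isoforms. The polysome mean was a median 6.47 times the ribosome-free mean (quartiles 4.84 and 11.4) over the 711 isoforms above 0 in ribosome-free RNA. It was a median 3.07 times the monosome mean (quartiles 2.41 and 4.59) over the 897 isoforms above 0 in monosomes.

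In limma on log2(TPM + 1), with all 6 fraction libraries in the fit, 879 of the 948 isoforms (92.7%) passed an adjusted p of 0.05 as higher in polysome than in ribosome-free RNA, beside 34.1% of all 19667 isoforms tested. Against monosomes 591 (62.3%) passed, beside 11.6% of all. The rule used both contrasts, so nothing is read from these counts. The count against monosomes fell when a polysome or monosome library was left out, and so did the share of all isoforms called. The median log2 difference between polysome and ribosome-free RNA was 3.08 in the class and 0.63 over all tested isoforms. After median-ratio scaling of the libraries these medians were 2.56 and 0.09, and after quantile normalization 2.52 and 0.11. The rule places the class above the median of all isoforms, so its standing there on each scale is no result. Of all isoforms called between these fractions, the share called higher in polysome was 75.4% as deposited, 54.4% after median-ratio scaling and 54.8% after quantile normalization.

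The lower polysome value of the 3 isoforms nearest inside the floor was 10.02, 10.02 and 10.07 TPM, and that of the 3 nearest outside 9.94, 9.93 and 9.92 TPM. The fold over ribosome-free RNA was 4.005, 4.010 and 4.015 inside and 3.997, 3.994 and 3.993 outside. For the fold over monosomes these values were 2, 2.004 and 2.007 inside and 1.997, 1.996 and 1.995 outside.

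Profiles within the class differed. A group of 43 isoforms (4.54%) was listed at 0 in all 4 ribosome-free and monosome libraries, and in another 194 (20.5%) both ribosome-free libraries were at 0 and monosomes were not. The largest group, 650 isoforms (68.6%), was above 0 in ribosome-free RNA and higher in monosomes. In the remaining 61 (6.43%) the monosome mean did not exceed the ribosome-free mean. A value of 0 is an estimate here, because the reads of isoforms that share sequence are divided among them, and it does not show that an RNA was absent.

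These profiles went with different levels. The median polysome level was 62.2 TPM in the 650 isoforms above 0 in ribosome-free RNA and higher in monosomes. It was 31.1 TPM in the 194 at 0 in ribosome-free RNA but not in monosomes. In the 43 at 0 in ribosome-free RNA and monosomes it was 34.3 TPM, and in the 61 with the lower monosome mean 27.5 TPM. Median read length was 1734, 1829, 1720 and 1569 nt in the same order. The 61 held the most short reads, with 16.4% of at most 1000 nt against 8% of the 650.

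The polysome level of the class spanned a wide range, from a mean of 10.3 to 3835 TPM with a median of 51.0 TPM (quartiles 25.3 and 109). A mean under 20 TPM was found for 144 isoforms (15.2%), whereas 257 (27.1%) had at least 100 TPM, 43 at least 500 TPM and 20 at least 1000 TPM. Isoforms at higher level had shorter reads. The median length was 2058 nt in the 144 isoforms under 20 TPM, 1787 nt in the 547 from 20 to under 100 TPM, 1554 nt in the 214 from 100 to under 500 TPM and 1485 nt in the 43 above.

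The 6 isoforms with the highest polysome mean had reads of 586 to 1134 nt, and none has a gene name in the sources used here. The isoform RSN_LD3.109_ccs_14269_1012_0_1012_1012_SUB0_pTNp_31, of 1012 nt, had 3973 and 3697 TPM in polysomes, 1616 and 1829 TPM in monosomes and 619.7 and 733.5 TPM in ribosome-free RNA. In hippocampus it was at 1248 and 1275 TPM, in somata at 84.7 and 124 TPM and in neuropil at 572 and 296 TPM. The isoform RNN_LD3.103_ccs_97788_1028_0_1028_1028_SUB0_pNAp_42, of 1028 nt, had 2936 and 1985 TPM in polysomes, 747 and 655 TPM in monosomes and 481 and 636 TPM in ribosome-free RNA. Both hippocampus libraries listed this second one at 0, somata at 66.7 and 52.6 TPM and neuropil at 973 and 204 TPM. High polysome level thus went with opposite hippocampus values in these 2 isoforms.

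The tissue levels of the other 4 varied. The isoform RSN_LD2.106_ccs_69101_779_0_779_779_SUB0_pTNp_36, of 779 nt, had 2062 and 1948 TPM in polysomes, and its 6 hippocampus and CA1 libraries ranged from 664 to 823 TPM. RNN_LD2.101_ccs_63049_1134_0_1134_1134_SUB0_pNAp_30, of 1134 nt, had 2106 and 1835 TPM in polysomes with monosome values of 303 and 287 TPM close to its ribosome-free values of 282 and 313 TPM. RNN_LD1.108_ccs_8885_586_0_586_586_SUB0_pNAp_37, of 586 nt, had 1829 and 1724 TPM in polysomes, 22.5 and 25.04 TPM in hippocampus and 219 and 203 TPM in somata. RSN_LD2.104_sub_150373_8060_8827_9479_652_SUB0_pTNu_11, of 652 nt, had 2095 and 2400 TPM in polysomes and 0 in both hippocampus libraries, and its replicates disagreed in somata (0.05 and 83.9 TPM) and in neuropil (65.7 and 0 TPM).

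Replicates of the class were compared on the log2(TPM + 1) scale. The rule sets a floor for polysomes and favours low values in the other fractions, so the spreads of the fractions are partly set by it. Over the 948 isoforms, log2 differences between replicates had an SD of 0.37 in polysomes, 1.19 in monosomes and 1.27 in ribosome-free RNA. Over the 8236 other isoforms that reached 10 TPM in both polysome libraries, hereafter the other polysome isoforms, it was 0.31, 0.51 and 0.85. In hippocampus it was 1.26 in the class and 0.94 in the other polysome isoforms, in somata 1.26 and 0.86, and in neuropil 1.71 and 1.09. Over all isoforms it was 1.24 in hippocampus, 1.16 in somata and 1.39 in neuropil. Over 571 isoforms that met the same limits with ribosome-free RNA in place of polysomes it was 1.32, 1.37 and 1.69. The polysome values differed by more than 2-fold between replicates in 23 isoforms of the class (2.43%) and in 108 of the other polysome isoforms (1.31%).

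Both folds were met within each replicate by 591 isoforms (62.3%), with 778 in replicate 1 and 751 in replicate 2. In 945 of the 948 isoforms both polysome values exceeded all 4 values of the other fractions. The 3 exceptions, named after their values were seen, were RSN_LD3.101_sub_63520_3090_0_1854_1854_SUB0_pTNp_51, RSN_LD4.107_ccs_129812_1062_0_1062_1062_SUB0_uNAp_37 and RSN_LD4.109_ccs_37674_1565_0_1565_1565_SUB0_pNAp_27. In the second of them polysomes were at 94.4 and 21.99 TPM and monosomes at 4.55 and 34.5 TPM, so replicate 1 alone carried its peak.

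Reads of the polysome-peaking isoforms were mostly of intermediate length. Read length is given by the isoform identifier and was not used by the rule. Its median was 1738 nt (quartiles 1302 and 2490, range 392 to 8262) in the class, 2181 nt in the other polysome isoforms and 2235 nt over all 28268. For comparison, 571 isoforms that met the same limits with ribosome-free RNA in place of polysomes had a median of 1892 nt. The 857 isoforms with at least 10 TPM in both monosome libraries and a monosome mean of at least 2 times that of each other fraction had a median of 2056 nt.

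The share of isoforms from 1001 to 2000 nt was 53.3% in the class, 34.4% in the other polysome isoforms, 33.5% in the ribosome-free-peaking isoforms, 32.4% in the monosome-peaking isoforms and 34.9% overall in the series. Reads of at most 1000 nt made up 7.17% of it, against 10.2%, 18%, 16.3% and 7.66% in the same order, and reads over 4000 nt made up 2.95% (28 isoforms), against 7.16%, 2.80%, 6.07% and 4.82%. No test was run over isoforms, which are not replicates.

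Seen by length, the share of isoforms at 10 TPM or more in polysomes that belonged to the class was highest at intermediate length. The share was 15.6% from 1001 to 1500 nt (279 of 1794) and 14.6% from 1501 to 2000 nt (226 of 1543). It was 9.78% from 701 to 1000 nt (59 of 603) and 2.93% at 700 nt or less (9 of 307). Longer isoforms reached 8.96% from 2001 to 3000 nt (245 of 2733), 6.43% from 3001 to 4000 nt (102 of 1586) and 4.53% above 4000 nt (28 of 618).

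**Figure D2:**
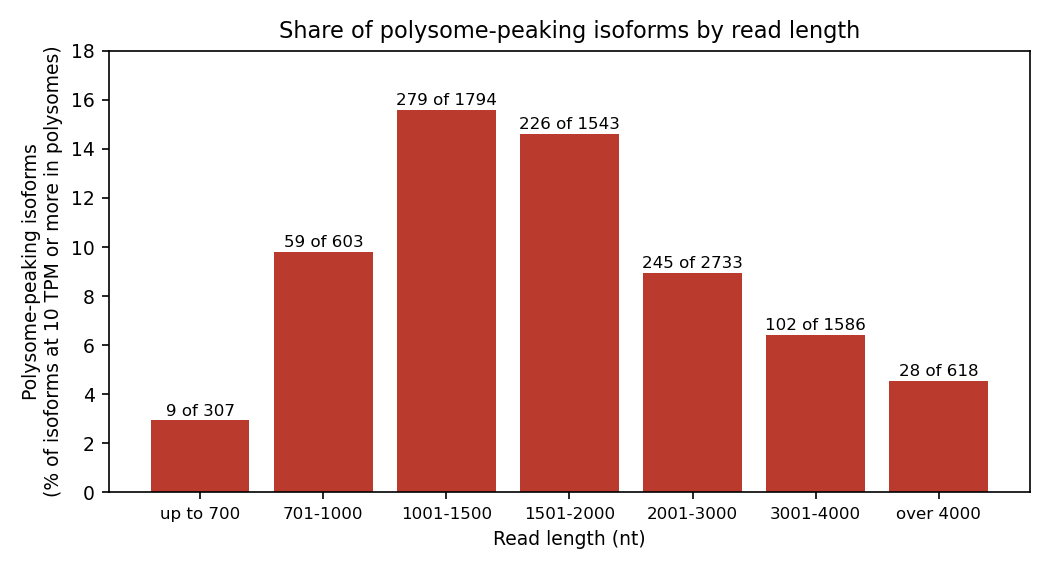
Polysome-peaking isoforms as a percentage of all isoforms with at least 10 TPM in both polysome libraries (y axis), by read length in nt (x axis), with the 2 counts above each bar. The share is highest from 1001 to 1500 nt (15.6%) and lowest at 700 nt or less (2.93%).

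Level also varied with length within the class. The median polysome mean was 213 TPM in its 9 isoforms of at most 700 nt, 103 TPM from 701 to 1000 nt, 54.8 TPM from 1001 to 1500 nt, 50.1 TPM from 1501 to 2000 nt, 38.7 TPM from 2001 to 3000 nt and 36.1 TPM from 3001 to 4000 nt. Above 4000 nt it was 56.9 TPM. Circular consensus reads, marked ccs in the identifier, gave 73.8% of the class and 71.4% of the other polysome isoforms.

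The polysome-peaking isoforms were present in hippocampus at lower levels than other isoforms of polysomes. The polysome libraries come from brain and the hippocampus libraries from another table, so levels were set side by side without a test. The methods state single-end reads for hippocampus but paired-end arguments for the RSEM runs, and the part of this in the hippocampus values was not tested. In bulk tissue, fewer cells of a type and less RNA per cell cannot be told apart. The median over the class was 25.2 TPM in hippocampus replicate 1 and 23.7 TPM in replicate 2. The mean of both replicates had a median of 23.5 TPM (quartiles 7.51 and 62.5), against 39.4 TPM in the other polysome isoforms (quartiles 18.7 and 84.7), 10.2 TPM in the ribosome-free-peaking, 16.7 TPM in the monosome-peaking and 5.38 TPM over all isoforms.

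Both hippocampus libraries listed 96 isoforms of the class (10.1%) at 0. This share was 1.97% in the other polysome isoforms, 17.9% in the ribosome-free-peaking, 4.43% in the monosome-peaking and 23.5% over all isoforms. Of these 96, 73 were above 0 in CA1, and 29 averaged at least 10 TPM across the 4 CA1 libraries. A mean above 0 and up to 1 TPM was found for 17 isoforms, from 1 to 10 TPM for 165 (17.4%), from 10 to 50 TPM for 373 (39.3%), from 50 to 100 TPM for 154 (16.2%) and above 100 TPM for 143 (15.1%). The polysome mean exceeded the hippocampus mean in 796 isoforms of the class (84.0%) and in 54.4% of the other polysome isoforms, with a median log2 ratio of 1.03 and 0.09 on the TPM + 1 scale. The polysome values that chose the class enter this ratio, so it is partly fixed by the rule. Across isoforms of the class, which share the same 4 libraries, Spearman's rho between polysome and hippocampus level was 0.66, and it was 0.71 in the other polysome isoforms.

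**Figure D3:**
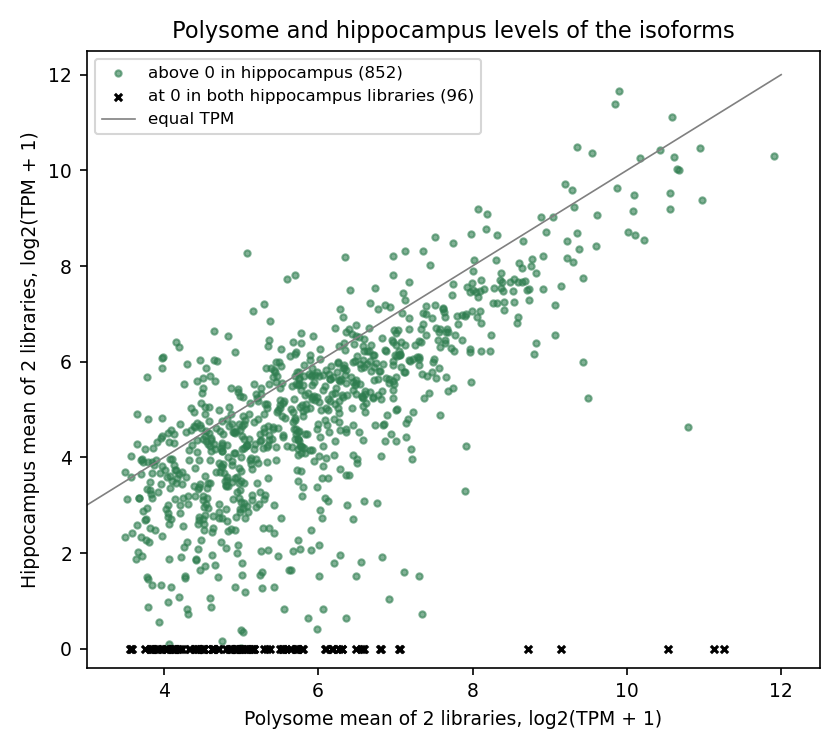
Mean level of the 948 isoforms in the 2 polysome libraries of brain (x axis) and in the 2 hippocampus libraries (y axis), both as log2(TPM + 1), each point 1 isoform and the line equal TPM. Of the points, 796 have the higher polysome level and 96, drawn as crosses, are listed at 0 in both hippocampus libraries.

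Isoforms with a sharper peak had lower hippocampus levels. The 243 isoforms with folds of at least 8 over ribosome-free RNA and 4 over monosomes had a median hippocampus level of 10.9 TPM and 23.0% at 0, whereas the other 705 had 29.8 TPM and 5.67% at 0. Their median polysome level was 35.8 TPM against 55.2 TPM, so they were also lower in polysomes. By profile, the share at 0 in hippocampus was 37.2% of the 43 isoforms at 0 in ribosome-free RNA and monosomes. It was 24.7% of the 194 at 0 in ribosome-free RNA but not in monosomes. Of the 650 above 0 in ribosome-free RNA and higher in monosomes it was 3.69%, and of the 61 others 13.1%.

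A set of 23 isoforms of the class (2.43%) was listed at 0 in all 6 hippocampus and CA1 libraries. This share was 0.328% in the other polysome isoforms, 9.28% in the ribosome-free-peaking, 1.28% in the monosome-peaking and 13.7% over all isoforms. The polysome means of the 23 ran from 13.2 to 95.3 TPM. The highest of them, named after their values were seen, was RSN_LD4.114_ccs_138801_1655_0_1655_1655_SUB0_pTNp_26 of 1655 nt, with 92.2 and 98.4 TPM in polysomes, 6.16 and 7.60 TPM in monosomes and 0 in ribosome-free RNA. RSN_LD3.108_sub_38670_4417_0_2721_2721_SUB0_pTNp_32 of 2721 nt was at 69.0 and 120.3 TPM in polysomes and at 0 in every other library.

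The 3 isoforms with the highest hippocampus level differed in how steady they were. RNN_LD4.113_sub_49215_4346_0_2626_2626_SUB0_pTNu_26, of 2626 nt, was at 3237 and 3184 TPM in hippocampus, 1161 and 747 TPM in polysomes, 0.50 and 17.0 TPM in monosomes and 0 in ribosome-free RNA. RSN_LD2.107_sub_87546_2227_0_2014_2014_SUB0_uNAp_26, of 2014 nt, was at 2242 and 2199 TPM in hippocampus and rose along the gradient, from 236 and 296 TPM over 483 and 450.04 TPM to 1396 and 1672 TPM. RSN_LD1.106_ccs_137372_558_0_558_558_SUB0_pNAp_34, of 558 nt, was at 2778 and 2555 TPM in hippocampus and 4467 and 5302 TPM in neuropil, but its fractions were uneven. Ribosome-free RNA held it at 213 and 0 TPM, monosomes at 0 and polysomes at 401 and 1444 TPM, and within replicate 1 its polysome value was less than 4 times the ribosome-free value.

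Between the CA1 compartments the polysome-peaking isoforms were spread around 0. The comparison asks which isoforms differ between the cell body layer and the layer of dendrites and axons. The rule did not use these libraries. The median level of the class was 28.4 and 30.3 TPM in somata and 32.4 and 29.5 TPM in neuropil. Of the 948 isoforms, 909 averaged at least 1 TPM across the 4 libraries and were tested, and 39 were not.

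The median difference, neuropil minus somata on the log2(TPM + 1) scale, was -0.10 (quartiles -0.59 and 0.48), against 0.01 over all 20393 isoforms tested. It was -0.04 in the other polysome isoforms, 0.11 in the monosome-peaking and 0.31 in the ribosome-free-peaking isoforms. The difference was below 0 in 512 of the 909 isoforms (56.3%), above 1 in 116 (12.8%) and below -1 in 139 (15.3%). In the other polysome isoforms 8.80% were above 1 and 7.52% below -1, and over all isoforms tested 16.7% and 14.7%. These shares were 18.8% and 19% in the ribosome-free-peaking and 13.4% and 11% in the monosome-peaking isoforms. Differences thus spread more widely in the class than in the other polysome isoforms, as did replicates. They spread less widely than in the ribosome-free-peaking isoforms.

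No isoform of the class passed an adjusted p of 0.05 in limma (0 of 909), beside 0% of all isoforms tested. The smallest adjusted p in limma was 0.179. The study compared isoforms of neuronal genes with several isoforms and reported isoforms enriched in each compartment. Levels of all isoforms were compared here by another test, so the counts are not alike. At an unadjusted p under 0.05, 81 isoforms (8.91%) were higher in neuropil, beside 7.57% of all, and 107 (11.8%) were lower, beside 7.26% of all. In the other polysome isoforms these shares were 11.3% and 11.1%. In the class the balance of higher and lower changed direction when either somata library was left out. In these fits the lone library is assumed to vary like the other compartment, and the balance over all isoforms is not given here. The compartments did not overlap in 180 isoforms with higher neuropil values (19.8%), beside 22.8% of all, and in 249 with lower values (27.4%), beside 22.1% of all. In the other polysome isoforms they did not overlap in 26.4% and 29.8%. An alternative with a pseudocount of 0.1 and a constant prior variance was added after seeing the data. There limma called 11 of 909 isoforms of the class, 2 higher and 9 lower in neuropil. Over all 20393 tested it called 463 (2.27%), 205 higher and 258 lower. At an unadjusted p under 0.05 in this fit, 46 isoforms of the class were higher and 37 lower.

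**Figure D4:**
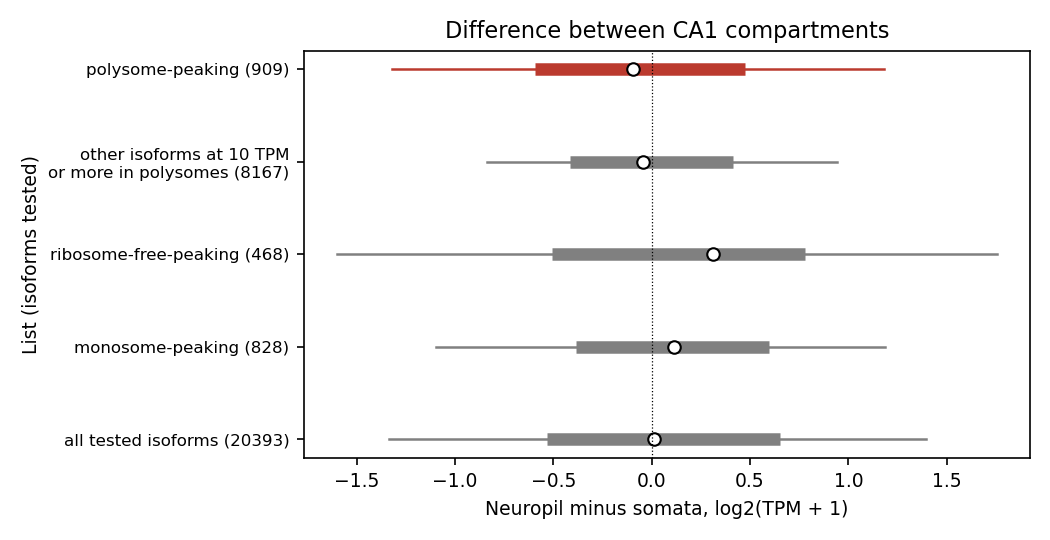
Difference between CA1 neuropil and somata in log2(TPM + 1) (x axis) for each list of isoforms (y axis, number tested in brackets), with the median as a circle, the quartiles as a thick bar and the 10th to 90th percentile as a thin line. The median is -0.10 in the polysome-peaking isoforms, -0.04 in the other polysome isoforms, 0.31 in the ribosome-free-peaking and 0.11 in the monosome-peaking isoforms, and the quartiles of every list lie on both sides of 0.

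The difference varied with the profile and the folds. In the 217 tested isoforms with folds of at least 8 and 4 its median was 0.18 and 42.4% had lower neuropil values, and in the other 692 tested it was -0.15 and 60.7%. The median was 0.74 in the 35 tested isoforms at 0 in ribosome-free RNA and monosomes. It was 0.02 in the 176 at 0 in ribosome-free RNA but not in monosomes. In the 642 above 0 in ribosome-free RNA and higher in monosomes it was -0.13, and in the 56 others -0.30. In the 42 tested isoforms with at least 500 TPM in polysomes it was -0.35, and 73.8% of these had lower neuropil values. The groups are described only, since the fractions chose them.

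The isoforms named for the compartments were those without overlap, with an average of 10 TPM or more and the highest or lowest difference. RSN_LD4.107_ccs_108142_1256_0_1256_1256_SUB0_pTNu_31, of 1256 nt, was listed at 0 in both somata libraries and at 59.5 and 107 TPM in neuropil, a difference of 6.34 (SE 0.50, adjusted p = 0.179 in limma). It was at 540.05 and 595 TPM in polysomes, 0 and 8.88 TPM in monosomes and 0 in ribosome-free RNA and hippocampus. The next ones, RNN_LD2.108_ccs_54660_1869_0_1869_1869_SUB0_pTNu_25 and RNN_LD4.114_ccs_38325_2449_0_2449_2449_SUB0_pTNp_19, were also at 0 in somata, but their neuropil values were uneven, at 75.4 and 11.4 TPM and at 39.7 and 5.64 TPM.

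At the other end, RSN_LD2.106_ccs_121733_979_0_979_979_SUB0_pTNp_26, of 979 nt, was at 43.9 and 106 TPM in somata and 0 in both neuropil libraries, a difference of -6.12 (SE 0.61, adjusted p = 0.179 in limma). Polysomes held it at 464 and 374 TPM and monosomes at 144 and 49.9 TPM. RSN_LD3.105_ccs_129260_2590_0_2590_2590_SUB0_pNAp_31, of 2590 nt, was at 37.6 and 44.5 TPM in somata and 0.05 and 0.20 TPM in neuropil, a difference of -5.22 (SE 0.49). The third was the isoform of Lypd1 described below. All 6 kept their direction under each alternative run.

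Gene names are available for isoforms that the study listed because their predicted protein gains or loses a signal peptide, the N-terminal stretch that sends a protein into the secretory pathway, or because they hold an unannotated open reading frame. Of 543 listed isoforms of 385 genes, 236 reached 10 TPM in both polysome libraries and 18, each of another gene, were polysome-peaking. This is 3.31% of those listed and 7.63% of those at 10 TPM, beside 3.35% of all isoforms and 10.3% of all at 10 TPM. The other 930 isoforms of the class have no gene name here. The list was built by the study from these transcripts and their translation, so it is not an independent sample of genes.

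By class of change, 4 of the 18 belonged to the 140 listed isoforms with a gained signal peptide (Adprhl2, Auh, C1qb and Ndrg2) and 13 to the 376 with a lost one, 2.86% and 3.46%. The last, Nr2c2ap, was the single member among 27 isoforms with an unannotated open reading frame, here in the 3′ untranslated region. Extended N-termini gave 2 of 33 isoforms, divergent ones 4 of 93 and truncated ones 11 of 390.

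**Figure D5:**
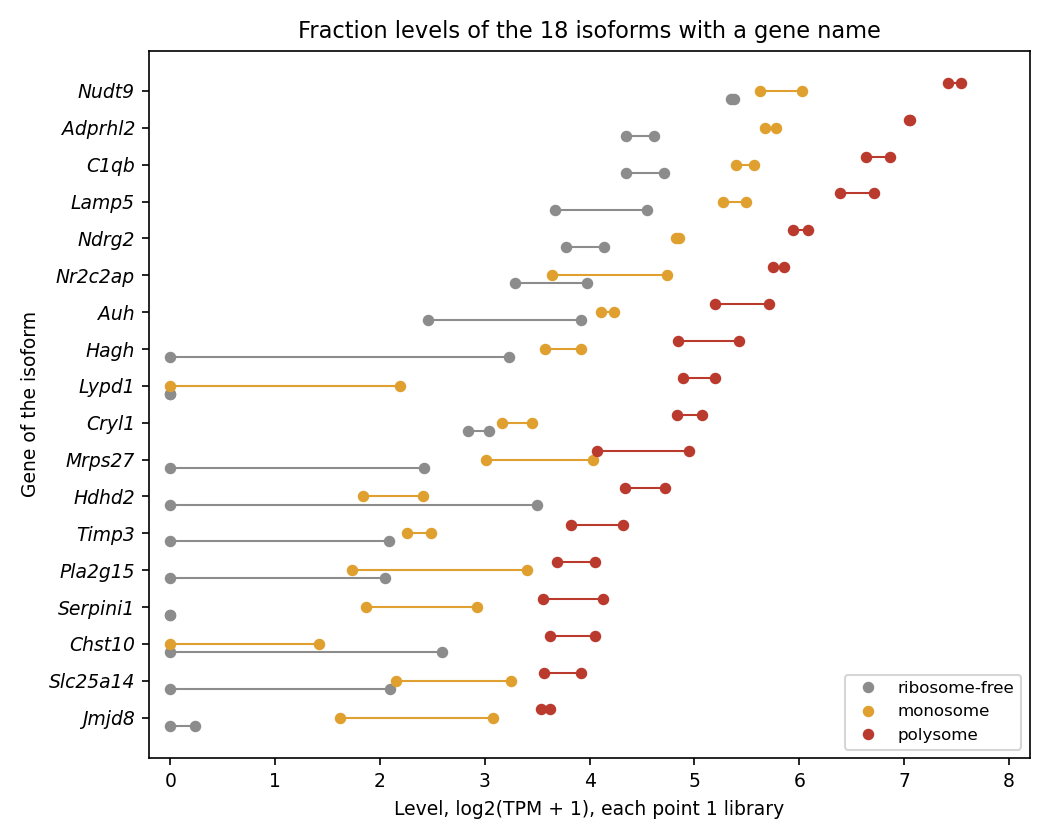
Levels of the 18 polysome-peaking isoforms with a gene name in the 6 fraction libraries, as log2(TPM + 1) on the x axis, each point 1 library and lines joining the 2 replicates of a fraction. The isoforms are ordered by polysome level from Jmjd8 (10.6 and 11.3 TPM) to Nudt9 (185 and 170.1 TPM), and in all 18 both polysome points lie to the right of the other 4.

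Mitochondrial proteins had 4 polysome-peaking isoforms among 52 listed and 21 at 10 TPM in polysomes (19.0% of the latter), for Auh, Mrps27, Nudt9 and Slc25a14. Nudt9, a hydrolase of ADP-ribose, had the highest polysome level of the 18, with 39.9 and 40.6 TPM in ribosome-free RNA, 64.1 and 48.4 TPM in monosomes and 185 and 170.1 TPM in polysomes. Hippocampus held its 1308 nt isoform at 134 and 105 TPM, somata at 127 and 131 TPM and neuropil at 88.7 and 111 TPM. The isoform was thus abundant in every tissue library, and its compartments differed by -0.38 (SE 0.16, adjusted p = 0.401 in limma). Auh, an enzyme of leucine breakdown that also binds AU-rich RNA, was at 14.1 and 4.51 TPM in ribosome-free RNA, 17.7 and 16.3 TPM in monosomes and 35.6 and 51.5 TPM in polysomes. Its 1178 nt isoform was low in hippocampus, at 2.58 and 3.13 TPM, and lower in neuropil (2.01 and 1.56 TPM) than in somata (8.54 and 11.5 TPM) without overlap, by -1.97 (SE 0.56, adjusted p = 0.264 in limma).

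Mrps27, a protein of the small subunit of the mitochondrial ribosome, was at 4.36 and 0 TPM in ribosome-free RNA, 15.3 and 7.05 TPM in monosomes and 29.8 and 15.8 TPM in polysomes. Its polysome replicate 2 lay barely above its monosome replicate 1. Its other listed isoform, of 1908 nt, was at 0 and 11.4 TPM in polysomes and 5.95 and 12.2 TPM in ribosome-free RNA, so it had no polysome peak. Slc25a14, a carrier of the inner mitochondrial membrane, was at 3.28 and 0, 8.52 and 3.44, and 14.1 and 10.8 TPM in the same order. Of its 3 other listed isoforms, one of 2462 nt did not separate monosomes (20.7 and 12.6 TPM) from polysomes (18.1 and 15.7 TPM). One of 1472 nt had 10.1 and 10.8 TPM in polysomes beside 14.6 and 9.58 TPM in ribosome-free RNA, and one of 1745 nt had 5.41 and 5.42 TPM in polysomes, below the floor.

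Secreted proteins had 3 among 48 listed and 23 at 10 TPM (13.0% of the latter), for C1qb, Serpini1 and Timp3. C1qb, a chain of the complement protein C1q that microglia make in the brain, was at 19.3 and 25.2 TPM in ribosome-free RNA, 46.4 and 41.1 TPM in monosomes and 116 and 98.3 TPM in polysomes. In neuropil its 1146 nt isoform was at 182 and 161 TPM, in somata at 79.3 and 77.5 TPM and in hippocampus at 67.1 and 55.9 TPM. The neuropil values lay above both somata values by 1.12 (SE 0.14, adjusted p = 0.179 in limma), and the part of a difference in microglia between the layers was not tested.

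Serpini1, or neuroserpin, an inhibitor of tissue plasminogen activator released by neurons, was at 0 in ribosome-free RNA, 6.62 and 2.65 TPM in monosomes and 16.4 and 10.8 TPM in polysomes. Its 2951 nt isoform was at 79.2 and 32.2 TPM in somata and 8.95 and 28.4 TPM in neuropil, with both neuropil values below both somata values. Its other listed isoform, of 1181 nt, was at 14.5 and 0.22 TPM in polysomes and 65.2 and 79.3 TPM in hippocampus, so the replicates of that one disagreed in polysomes. Timp3, an inhibitor of matrix metalloproteinases, was at 0 and 3.24, 3.77 and 4.61, and 13.2 and 19.0 TPM along the gradient.

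Lysosomal proteins had 2 among 41 listed and 17 at 10 TPM (11.8% of the latter), for Lamp5 and Pla2g15. The rule sets isoforms in and outside the class apart by their fraction values, so a contrast between them there is no result. Lamp5, a neuronal member of the lysosome-associated membrane protein family, had a listed isoform in the class and another outside it. Its 1451 nt isoform was at 22.4 and 11.7 TPM in ribosome-free RNA, 44.1 and 37.7 TPM in monosomes and 82.7 and 104 TPM in polysomes. Its 1282 nt isoform was at 119 and 119.95 TPM, 130.1 and 123 TPM, and 106 and 76.5 TPM in the same order, with no rise along the gradient. Hippocampus held the polysome-peaking one at 2.99 and 2.02 TPM and the other at 21.7 and 24.5 TPM, and neuropil held the first at 0. Pla2g15, a phospholipase of the lysosome, was at 0 and 3.13, 2.33 and 9.59, and 15.6 and 11.9 TPM along the gradient.

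Proteins of the endoplasmic reticulum and Golgi had 1 among 61 listed and 31 at 10 TPM, for Chst10, the sulfotransferase that makes the HNK-1 carbohydrate of cell adhesion proteins. It was at 5.03 and 0 TPM in ribosome-free RNA, 0 and 1.67 TPM in monosomes and 15.6 and 11.3 TPM in polysomes. Neurotransmitter receptors and their synaptic partners had 0 among 38 listed and 19 at 10 TPM, and solute carriers of the plasma membrane and vesicles 0 among 17 listed and 2 at 10 TPM. With so few listed isoforms per role, the shares are counts only.

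The remaining 8 belonged to no role list. Lypd1, a membrane-anchored protein that modulates nicotinic acetylcholine receptors, likewise had a listed isoform outside the class, set apart by the same rule. Its 1603 nt isoform was at 0 in ribosome-free RNA, 0 and 3.55 TPM in monosomes and 28.8 and 35.7 TPM in polysomes, whereas its 2143 nt isoform was at 15.5 and 34.8, 39.0 and 29.0, and 23.0 and 26.4 TPM in the same order. The 1603 nt isoform was listed at 0 in hippocampus and in neuropil but at 23.4 and 19.1 TPM in somata, a difference of -4.47 (SE 0.59, adjusted p = 0.179 in limma). The 2143 nt isoform was at 24.2 and 31.4 TPM in somata and 33.9 and 39.1 TPM in neuropil, and at 88.6 and 71.3 TPM in hippocampus.

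Hdhd2, a hydrolase of the haloacid dehalogenase family, had 3 listed isoforms. The polysome-peaking one, of 2367 nt, was at 0 and 10.3 TPM in ribosome-free RNA, 2.58 and 4.32 TPM in monosomes and 19.2 and 25.4 TPM in polysomes. The 1663 nt isoform was more abundant and graded too, from 25.5 and 26.7 over 44.1 and 43.8 to 104.5 and 74.4 TPM, with a fold over ribosome-free RNA of 3.43 that kept it outside the class. The 2231 nt isoform fell to 6.25 and 2.09 TPM in polysomes from 9.88 and 10.1 TPM in monosomes.

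Adprhl2, a hydrolase that removes ADP-ribose from serine, was among the steadiest, at 19.3 and 23.5 TPM in ribosome-free RNA, 53.9 and 50 TPM in monosomes and 132 and 132 TPM in polysomes. Its neuropil values (60.8 and 69.3 TPM) lay below its somata values (85.2 and 90.1 TPM) by -0.43 (SE 0.15, adjusted p = 0.331 in limma). Hagh, a hydrolase of the glyoxalase pathway, was at 8.40 and 0, 10.9 and 14.1, and 41.9 and 27.7 TPM along the gradient, and at 133 and 132 TPM in hippocampus. It was the only one of the 18 with a hippocampus mean above 100 TPM beside Nudt9, and its compartments differed by -0.80 (SE 0.17, adjusted p = 0.21 in limma), with 103 and 102 TPM in somata and 52.2 and 65.1 TPM in neuropil. Cryl1, an enzyme of glucuronate metabolism, was at 6.14 and 7.21, 7.96 and 9.90, and 32.6 and 27.6 TPM along the gradient.

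Ndrg2, a protein of the NDRG family that is abundant in astrocytes, was at 12.7 and 16.6 TPM in ribosome-free RNA, 27.9 and 27.3 TPM in monosomes and 66.8 and 60.4 TPM in polysomes. Its 2206 nt isoform was at 17.7 and 29.1 TPM in neuropil and 7.70 and 0.70 TPM in somata, by 2.63 (SE 0.93, adjusted p = 0.325 in limma), and the part of a difference in astrocytes between the layers was not tested. Nr2c2ap, a protein that binds a nuclear receptor, was at 14.7 and 8.77, 25.7 and 11.5, and 56.9 and 52.8 TPM along the gradient, with a compartment difference of 0.00 (SE 0.20, adjusted p = 0.996 in limma). Jmjd8, a protein with a JmjC domain, was at 0.18 and 0, 7.42 and 2.07, and 10.6 and 11.3 TPM, and at 0 in both hippocampus libraries.

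Across the 18, hippocampus levels ran from 0 in Jmjd8, Lypd1 and Pla2g15 to over 100 TPM in Hagh and Nudt9. None differed between the compartments at an adjusted p of 0.05 in limma, with the smallest adjusted p = 0.179 in C1qb and Lypd1.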

How the data were processed

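Levels were taken from 3 deposited tables of TPM values, which the authors made by removing adapters with flexbar, mapping reads to the 28268 FLTs with Bowtie 2 and estimating isoform levels with RSEM. Versions for these steps are not given in the sources used here. The labels give polyadenylated RNA and the methods a total RNA kit for the fractions. Reads of overlapping isoforms are divided among them by expectation-maximization. Values have 2 decimals, and the depth is unknown, so no counting intervals were computed. The rule was applied to the 6 fraction libraries as deposited. Differences were tested within a table by limma 3.58.1 in R 4.3.3 (lmFit, eBayes with a trend, two-sided, Benjamini-Hochberg) on log2(TPM + 1) for isoforms averaging at least 1 TPM. On this scale, changes of low isoforms come out smaller than they are. The fits were tested on simulated data. Python 3.11.15, pandas 2.3.3 and matplotlib 3.10.9 gave counts and plots. Alternatives changed the scaling, the floor, the folds, the pseudocount, the filter, the prior variance and the replicate block, and left out each library in turn.

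Genes were named by the study's lists of isoforms with a changed signal peptide or an unannotated open reading frame, where 543 entries matched an isoform and 8 did not. Named were all polysome-peaking isoforms with a gene name with the other listed isoforms of the gene, the 6 highest in polysomes, the 3 highest in hippocampus, the 3 highest and 3 lowest between compartments among those without overlap and averaging at least 10 TPM, and those nearest the limits, which are given by their values alone. The rule, the lists and these choices were made with earlier results of these data known. Isoform sequences are not used here.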

Additional observations from a re-analysis of the deposited data

How the results depend on the processing

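The size of the class depended on the scaling and the folds. It held 548 isoforms after quantile normalization (522 of them among the 948), 589 after median-ratio scaling (567 shared), 591 with both folds within each replicate and 243 with folds of 8 and 4, and between 741 and 1156 with a floor of 20 or 5 TPM. Leaving out each library in turn gave 925 to 1103. Median hippocampus level was 16.8 TPM in the isoforms chosen after quantile normalization, 26.7 TPM with folds within each replicate and 10.9 TPM with folds of 8 and 4, and 23.7 to 25.2 TPM with a hippocampus library left out. Median read length under the same choices was 1828.5, 1730 and 1655 nt. Calls against ribosome-free RNA numbered 636 to 838 and those against monosomes 211 to 666 with a library left out. The cause of these shifts was not tested.

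Between compartments, 0 isoforms of the class passed the adjusted threshold under all 12 alternatives planned, and 11 did when the pseudocount was 0.1 and the prior variance constant, an alternative added after seeing the data. Those 11 stood beside 463 of all 20393 isoforms tested (2.27%). The median difference of the class stayed between -0.16 and -0.03 with each library left out.

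Correlations of same-numbered deviations were 0.00, 0.00 and -0.01 among fractions and 0.03 between compartments, so no shared shift by replicate number was seen. They cannot show whether same-numbered libraries came from the same animal. With the replicate number as a block, 881 isoforms of the class were called against ribosome-free RNA, beside 31.7% of all tested. Against monosomes 520 were called, beside 9.07% of all, and between compartments 0. The median compartment difference was -0.10 with this block. Unknown depth limits all values near 0.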
